A study of Homo sapiens with 4 samples.

Results

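The 40 genes examined here carry out DNA replication and the entry into S phase, and their mRNA levels were compared between FLO-1LM and FLO-1 parental cells. They were taken by name from a fixed list of licensing, replisome, nucleotide supply and E2F genes, and all 40 were found among the 63677 Ensembl genes counted in each of 4 RNAseq libraries. FLO-1 is an established cell line of human esophageal adenocarcinoma, a gland-forming cancer of the lower esophagus. FLO-1LM is a subline cultured from a liver metastasis of these cells after the tumors had gone through several rounds of growth in immunodeficient NSG mice, so it represents a single derived line. Each line gave 2 libraries from cells collected at 80% confluency, 24 hours after fresh medium, and the labels name no treatment in either line. Whether a line's libraries stem from separate cultures is not given in the labels, so p-values measure the spread between these libraries, which may be technical. The series was made to find how expression differs between the metastatic subline and its parent, and the comparison below asks this of the replication machinery.

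Replication starts in G1, when the origin recognition complex, CDC6 and CDT1 load rings of MCM helicase onto DNA. At the G1/S boundary cyclin E and its kinase help to release E2F transcription factors from the RB protein, and E2F factors switch on many of the genes needed to copy DNA. CDC45 and the GINS complex then activate the helicase, primase and polymerases copy the strands with the PCNA clamp, and nucleases and a ligase join the lagging-strand pieces. Most of these mRNAs peak at G1/S, so in a growing culture their level can follow the share of cells near S phase, and in bulk RNA a smaller share of such cells cannot be told apart from less RNA per cell.

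A feature that many of these genes share is sequence near their start. Of the 40 genes, 36 had a window in the RefSeq promoter table (GRCh38.p14, 250 bases before to 50 bases after the start site), with 45 windows in all. *MCM5*, *POLD3*, *RPA2* and *RPA3* had none. The E2F-type motifs TTTCCCGC and TTTGGCGC were searched on both strands, and no run of bases can match both in full. At least 1 of them was present for 16 of the 36 genes (44.4%), compared with 750 of 27305 genes in the whole table (2.75%). The CCAAT motif, searched in the same way, was present for 21 of the 36 genes (58.3%) against 39.7% of all genes. The 40 genes were chosen as G1/S and E2F genes, and the whole table was not limited to genes tested here. These shares are therefore a description, and no test was made. The windows of 5 genes are shown, all with an E2F-type motif and chosen by their place in the measurements below. They do not span the full range. *RPA3* had no window, and *ORC1* and *PRIM1*, which differed more than *GINS3* and *RFC3*, had no such motif. *CDC6* and *RFC3* were among the genes with the largest differences above 0, *GINS3* was among the 3 with the largest differences below 0, and *MCM3* and *E2F1* lay near 0. Sequences run 5′ to 3′ along the gene, with E2F-type motifs in capitals on whichever strand they lay.

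CDC6, chr17:40287629-40287928, forward strand: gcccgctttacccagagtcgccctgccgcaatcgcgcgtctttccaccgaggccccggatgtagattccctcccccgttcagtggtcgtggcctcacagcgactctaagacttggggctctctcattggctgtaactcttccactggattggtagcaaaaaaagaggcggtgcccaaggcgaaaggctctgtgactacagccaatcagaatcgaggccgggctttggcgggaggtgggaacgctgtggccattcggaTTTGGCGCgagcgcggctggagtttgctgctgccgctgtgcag
RFC3, chr13:33817899-33818198, forward strand: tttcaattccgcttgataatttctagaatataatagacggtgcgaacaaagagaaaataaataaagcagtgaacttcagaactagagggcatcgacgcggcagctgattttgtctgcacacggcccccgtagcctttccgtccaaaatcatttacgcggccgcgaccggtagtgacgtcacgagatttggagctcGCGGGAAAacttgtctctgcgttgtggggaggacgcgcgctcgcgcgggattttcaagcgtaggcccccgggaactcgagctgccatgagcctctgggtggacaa
GINS3, chr16:58392221-58392520, forward strand: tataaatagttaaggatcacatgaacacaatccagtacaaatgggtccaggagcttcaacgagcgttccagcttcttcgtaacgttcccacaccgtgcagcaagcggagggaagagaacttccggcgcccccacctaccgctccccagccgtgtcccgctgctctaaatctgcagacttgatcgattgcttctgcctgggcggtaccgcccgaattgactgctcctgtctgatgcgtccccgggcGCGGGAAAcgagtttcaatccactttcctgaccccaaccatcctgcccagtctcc
MCM3, chr6:52284693-52284992, reverse strand: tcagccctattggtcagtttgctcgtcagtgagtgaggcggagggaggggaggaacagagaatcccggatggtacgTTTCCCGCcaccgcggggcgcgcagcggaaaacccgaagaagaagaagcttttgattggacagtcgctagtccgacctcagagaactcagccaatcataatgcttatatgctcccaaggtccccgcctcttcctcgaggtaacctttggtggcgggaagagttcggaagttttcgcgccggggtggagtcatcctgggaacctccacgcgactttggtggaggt
E2F1, chr20:33686336-33686635, reverse strand: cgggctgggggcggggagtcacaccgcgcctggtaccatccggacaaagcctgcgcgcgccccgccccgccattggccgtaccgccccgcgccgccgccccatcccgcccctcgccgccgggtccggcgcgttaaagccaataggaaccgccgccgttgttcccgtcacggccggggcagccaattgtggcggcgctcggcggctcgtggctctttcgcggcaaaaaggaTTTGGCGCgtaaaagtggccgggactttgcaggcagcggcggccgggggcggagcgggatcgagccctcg

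**Figure D1:**
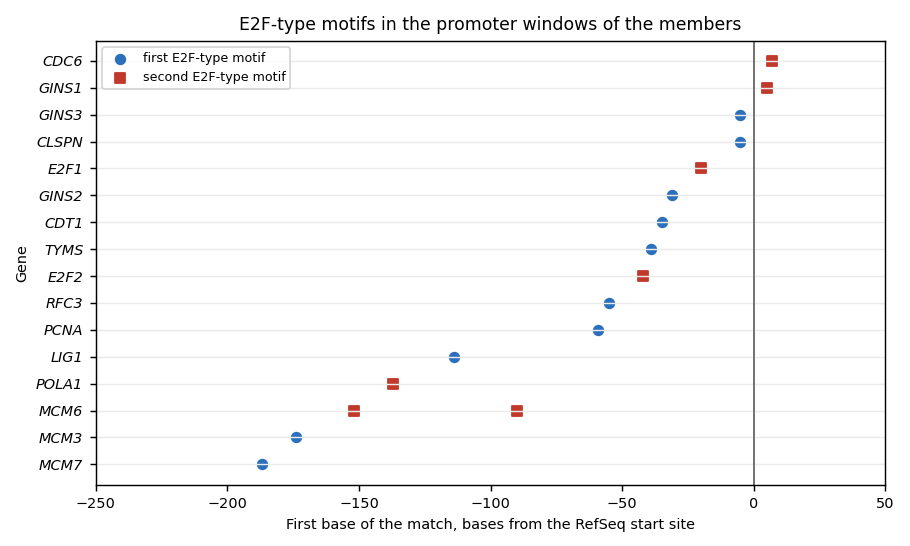
Position of each E2F-type motif match (vertical axis, 1 row per gene) against its distance in bases from the RefSeq start site (horizontal axis) for the 16 genes that held a match. The first motif is TTTCCCGC (circles) and the second is TTTGGCGC (squares), and 12 of the 17 matches began within 100 bases of the start site.

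The matches had a median first base 42 bases before the start site, and their positions were not compared with those in other genes. *MCM6* was the gene with more than 1 match. A match is a description of letters and not evidence that a factor binds there.

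Total counts per library ran from 19060310 to 25920336, and each of the 40 genes had between 320 and 9600 counts in every library. Levels are given as CPM, a gene's counts relative to all counts of its library after adjustment by edgeR's TMM factors. Libraries of the same line differed beyond counting noise, with a chi-square per degree of freedom of 9.61 for the FLO-1LM pair and 4.55 for the parental pair over tested genes, so all 4 were kept as separate samples. Of 6 epithelial markers, *KRT8*, *KRT18*, *KRT19*, *CDH1* and *KRT7* were expressed, but *EPCAM* had 3 to 12 counts, and the summed epithelial level was 488 and 502 CPM in the FLO-1LM libraries and 848 and 862 CPM in the parental libraries. *CDH1*, *KRT19*, *KRT8* and *KRT18* passed the threshold as lower in FLO-1LM, while *KRT7* had a log2 fold change of 0.64 that did not pass. Hepatocyte marker *ALB*, fibroblast marker *COL3A1* and leukocyte marker *PTPRC* had 0 counts in all 4 libraries. Over the whole lists, 4 of 6 hepatocyte, 2 of 6 fibroblast, 1 of 5 leukocyte and 1 of 4 endothelial markers were at 0 throughout, and the highest summed levels in any library were 18.1, 13.1, 0.932 and 0.313 CPM in that order. Mitochondrial genes took 9.96% and 9.57% of counts in the FLO-1LM libraries and 7.93% and 8.31% in the parental libraries, and 0 of the 40 genes passed the threshold with these genes left out. Reads were mapped to the human genome, so mouse cells were not assessed here.

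The expression of the 40 replication genes was nearly the same in both lines. They took 0.363% and 0.373% of all counts in the FLO-1LM libraries and 0.366% and 0.372% in the parental libraries. Their summed level was 3686 and 3751 CPM in FLO-1LM and 3615 and 3698 CPM in parental cells. FLO-1LM replicate 2 had the highest sum and parental replicate 1 the lowest, and the lines overlapped.

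Of the 40 genes, all of which passed the low-count filter, 0 had an adjusted p below 0.05 when the 2 FLO-1LM libraries were set against the 2 parental ones by edgeR's quasi-likelihood test. The same threshold was passed by 2.23% of the 17143 genes tested, and by 1.76% of the 9110 genes whose mean level was at least that of the lowest of the 40 (16.2 CPM). At an unadjusted p below 0.05, 1 of the 40 (*CDC6*) passed, against 12.4% of all tested genes and 12.5% of those 9110. DESeq2 and limma voom also gave 0 genes past the adjusted threshold, and with all 4 libraries each gave only *CDC6* at the unadjusted one. With 1 library left out, the unadjusted calls changed. They are not listed, because the share of all tested genes called in the same fits was not taken. The log2 fold changes of FLO-1LM over parental cells then ran from −0.13 to 0.39 without FLO-1LM replicate 1 and from −0.38 to 0.29 without FLO-1LM replicate 2. They ran from −0.31 to 0.22 without parental replicate 1 and from −0.30 to 0.26 without parental replicate 2. With all 4 libraries they ran from −0.23 to 0.24 with a median of 0.027, and 25 were above 0 and 15 below. The split depended on scaling, with 18 above and 22 below 0 when library totals replaced the TMM factors, and a median of −0.0046. Over all tested genes the median was 0.0016.

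A gene that misses the threshold may still differ, so the intervals are given. The 95% interval of the log2 fold change, derived from edgeR's F statistic, lay within a 1.5-fold change in either direction for 40 of the 40 genes. The same held for 59.4% of all tested genes, many of which had fewer reads and so wider intervals, and for 96.5% of the 9110 genes at least as abundant as the lowest of the 40. The outermost bounds were −0.49 for *RPA3*, a fold of 0.712, and 0.47 for *PRIM1*, a fold of 1.38. Standard errors ran from 0.071 for *MCM3* to 0.15 for *GINS2*, the least abundant of the 40 in CPM.

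**Figure D2:**
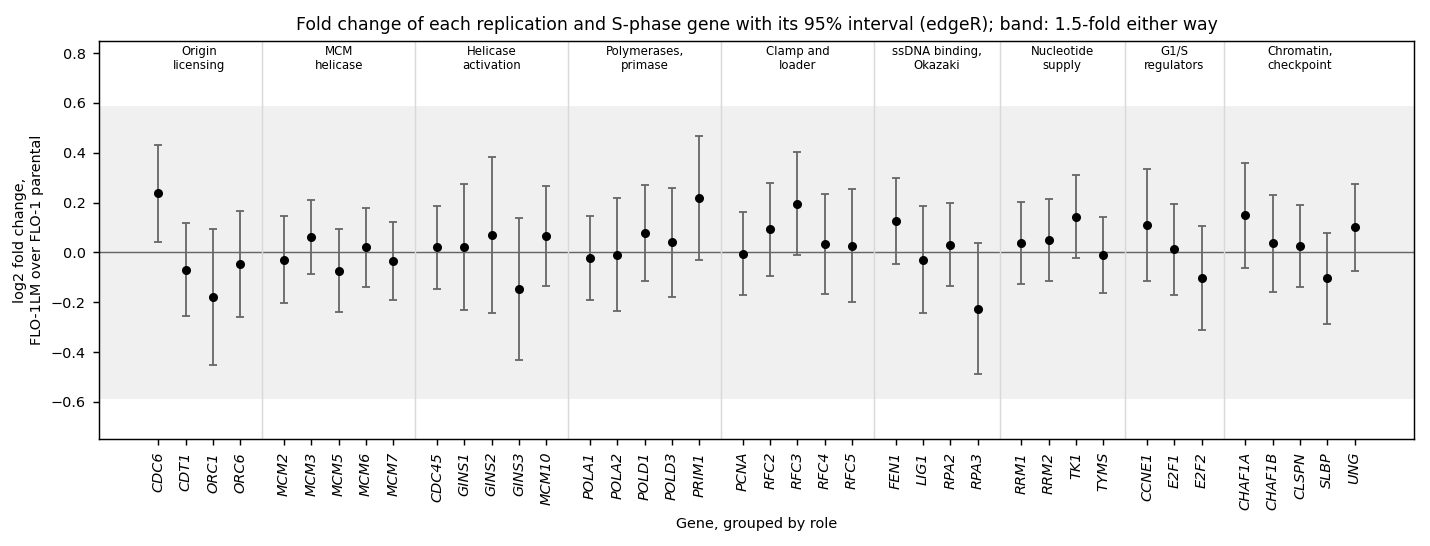
Log2 fold change of FLO-1LM over FLO-1 parental cells (vertical axis) for each of the 40 genes (horizontal axis, grouped by role), with points for the edgeR estimate, bars for its 95% interval and a gray band for a 1.5-fold change in either direction. Every interval stays inside the band, and that of *CDC6* is the only 1 that leaves out 0.

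The gaps between libraries are given beside those between lines. On the log2 CPM scale, the median absolute gap over the 40 genes was 0.10 between the FLO-1LM libraries, 0.058 between the parental libraries and 0.054 between the means of the lines. Over the 9110 genes of similar or higher level these medians were 0.11, 0.083 and 0.088. A gap between means of 2 libraries is smaller than one between single libraries when nothing differs, so these values describe the spread and are no test. Both FLO-1LM libraries lay above both parental libraries for 8 of the 40 genes, against 20.9% of all tested genes. They lay below both for 5 of the 40, against 21.7% of all tested genes. Of the 9110 genes of similar or higher level, 2165 lay above and 1770 below in this way.

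Origin recognition and licensing genes had 0 of 4 past the threshold, with log2 fold changes from −0.18 to 0.24. *CDC6*, the loading factor that joins the origin complex to recruit the helicase, is encoded from 38444131 to 38460909 on chromosome 17 (GRCh37, as for all gene positions here). It was measured at 62.9 and 69.4 CPM in the FLO-1LM libraries and 55.3 and 57.0 CPM in the parental libraries. Both FLO-1LM libraries were above both parental ones, yet the FLO-1LM libraries lay further apart than the nearest libraries of the different lines. The log2 fold change was 0.24 (95% interval 0.044 to 0.43, adjusted p = 0.271 from edgeR, with a standard error of 0.092), a fold of 1.18 that did not pass the threshold. With a library left out it ranged from 0.16 to 0.31, the latter without FLO-1LM replicate 1. *ORC1*, the ATPase subunit that binds origins (chromosome 1 from 52838501 to 52870095), was measured at 22.7 and 26.5 CPM in FLO-1LM and 30.2 and 25.5 CPM in parental cells. Its lines overlapped, with a log2 fold change of −0.18 (adjusted p = 0.652 from edgeR, with a standard error of 0.13), or from −0.30 to −0.050 with a library left out. The remaining genes of this role were *ORC6*, another origin subunit, at −0.046 and *CDT1*, which loads the helicase together with *CDC6*, at −0.070.

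The MCM genes listed here encode 5 of the subunits of the ring that unwinds DNA ahead of the fork, and 0 of 5 passed the threshold. Their log2 fold changes were −0.029 for *MCM2*, 0.062 for *MCM3*, −0.073 for *MCM5*, 0.020 for *MCM6* and −0.036 for *MCM7*. *MCM5*, on chromosome 22 from 35796127 to 35821424, had the smallest p of the 5, with 159 and 166 CPM in FLO-1LM and 162 and 181 CPM in parental cells. The higher parental value came from replicate 2, and the lines overlapped (adjusted p = 0.801 from edgeR, with a standard error of 0.079). Abundant and precisely measured, these genes had standard errors of at most 0.083. *MCM7* overlaps exons of *AP4M1* on the opposite strand, and *MCM7* had 11.6 times the counts of that gene.

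Helicase activation genes also had 0 of 5 past the threshold. *GINS3*, a subunit of the GINS complex on chromosome 16 from 58328984 to 58440051, had the smallest p among them. It was measured at 18.7 and 20.004 CPM in FLO-1LM and 22.7 and 20.1 CPM in parental cells. The lines did not overlap, but their replicate 2 values differed by less than either line's own gap, and the log2 fold change was −0.15 (adjusted p = 0.753 from edgeR, with a standard error of 0.14), or from −0.23 to −0.055 with a library left out. *CDC45*, which completes the active helicase, was at 0.020, *MCM10*, which helps to switch it on, at 0.067, and the other GINS subunits *GINS1* and *GINS2* at 0.021 and 0.070.

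Among polymerase and primase genes, 0 of 5 passed the threshold and the log2 fold changes ran from −0.023 to 0.22. *PRIM1*, the catalytic subunit of primase that lays the RNA primers (chromosome 12 from 57124222 to 57146158), gave 36.1 and 46.4 CPM in FLO-1LM and 35.4 and 35.6 CPM in parental cells. The difference lay in FLO-1LM replicate 2, whereas replicate 1 was close to both parental libraries. The log2 fold change was 0.22 (adjusted p = 0.491 from edgeR, with a standard error of 0.12). Without FLO-1LM replicate 1 it was 0.39, and without replicate 2 it was 0.024. *PRIM1* shares 139 exon bases on its own strand with *NACA*, which had many more reads and a log2 fold change of 0.13 (adjusted p = 0.509 from edgeR), and the part of *NACA* in the *PRIM1* counts was not tested. Polymerase alpha genes, whose products extend the primers, were at −0.023 for *POLA1* and −0.0099 for *POLA2*. Those of polymerase delta, which copies the lagging strand, were at 0.077 for *POLD1*, the catalytic subunit, and 0.040 for *POLD3*.

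The sliding clamp *PCNA* and the RFC genes, whose products open the clamp and place it on DNA, had 0 of 5 past the threshold. *PCNA* had the smallest difference of the 40 genes, at −0.0055 (standard error 0.080, 95% interval −0.17 to 0.16), with 111 and 105 CPM in FLO-1LM and 109 and 108 CPM in parental cells. *RFC3*, on chromosome 13 from 34392206 to 34540695, was measured at 58.0 and 51.0 CPM in FLO-1LM and 48.3 and 46.7 CPM in parental cells. Both FLO-1LM libraries were above both parental libraries, and the log2 fold change of 0.20 did not pass the threshold (adjusted p = 0.439 from edgeR, with a standard error of 0.098). It was 0.10 without FLO-1LM replicate 1 and 0.29 without replicate 2. The other loader genes were close to 0, with *RFC2* at 0.093, *RFC4* at 0.034 and *RFC5* at 0.027. Between the FLO-1LM libraries *RFC5* ranged from 44.9 to 55.4 CPM, which took in both parental values.

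Genes for single-strand binding and for processing Okazaki fragments, the short pieces of the lagging strand, had 0 of 4 past the threshold. *RPA3*, the smallest subunit of the RPA complex that coats single-stranded DNA (chromosome 7 from 7676149 to 7758238), had the largest difference below 0 of the 40 genes. It was measured at 24.3 and 29.7 CPM in FLO-1LM and 29.9 and 33.4 CPM in parental cells. The lines did not overlap, but FLO-1LM replicate 2 was nearly level with parental replicate 1. The log2 fold change was −0.23 (adjusted p = 0.508 from edgeR, with a standard error of 0.13), or −0.089 without FLO-1LM replicate 1 and −0.38 without replicate 2. Its exons overlap *UMAD1* on the opposite strand by 118 bases, that gene had a log2 fold change of −0.19 (adjusted p = 0.657 from edgeR), and the strand setting of the counting is not stated. Reads on pseudogenes named after *RPA3* made up 8.27% to 13.6% of the counts on both kinds of gene together, so its counts may be split. *RPA2*, of the same complex, was at 0.031, *FEN1*, the flap nuclease, at 0.13 and *LIG1*, the ligase that seals the pieces, at −0.029.

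Genes of nucleotide supply, with 0 of 4 past the threshold, included some of the most abundant of the 40. *TK1*, thymidine kinase (chromosome 17 from 76170172 to 76183314), gave 208 and 183 CPM in FLO-1LM and 174 and 180 CPM in parental cells. FLO-1LM replicate 1 was well above the rest, while replicate 2 was near parental replicate 2. The log2 fold change was 0.14 (adjusted p = 0.508 from edgeR, with a standard error of 0.080). It was 0.048 without FLO-1LM replicate 1 and 0.23 without replicate 2. *TYMS*, thymidylate synthase and the target of fluorouracil, was at −0.010, and the ribonucleotide reductase genes *RRM1* and *RRM2* at 0.038 and 0.049. *TYMS* shares 967 exon bases with *ENOSF1* on the opposite strand, which had fewer reads than *TYMS*.

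The G1/S regulators act at the entry into S phase, and 0 of 3 passed the threshold. *CCNE1*, cyclin E1 (chromosome 19 from 30302898 to 30315219), was measured at 39.6 and 35.7 CPM in FLO-1LM and 34.3 and 35.4 CPM in parental cells. The lines did not overlap, but FLO-1LM replicate 2 was nearly level with parental replicate 2, and the log2 fold change was 0.11 (adjusted p = 0.766 from edgeR, with a standard error of 0.11), or from 0.036 to 0.18 with a library left out. The activator *E2F1* was at 0.013 (95% interval −0.17 to 0.20), with 72.3 and 67.6 CPM in FLO-1LM and 69.4 and 69.2 CPM in parental cells. Its relative *E2F2* was at −0.10. Genes with E2F-type motifs in their windows had a median log2 fold change of 0.0036 (n = 16, from −0.15 to 0.24), and those without had 0.043 (n = 20, from −0.18 to 0.22).

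The last group holds genes that package new DNA, guard the fork and process histone mRNA, and 0 of 5 passed the threshold. *CHAF1A*, the large subunit of the chromatin assembly factor (chromosome 19 from 4402637 to 4445015), gave 51.8 and 47.3 CPM in FLO-1LM and 42.3 and 47.1 CPM in parental cells. FLO-1LM replicate 2 and parental replicate 2 were nearly level, and the log2 fold change was 0.15 (adjusted p = 0.627 from edgeR, with a standard error of 0.10), or from 0.070 to 0.23 with a library left out. *CHAF1B*, its partner subunit, was at 0.036, and *CLSPN*, an adaptor of the replication checkpoint, at 0.027. *SLBP*, which binds the stem loop of histone mRNAs, was at −0.10, and *UNG*, the glycosylase that removes uracil from DNA, at 0.10.

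**Figure D3:**
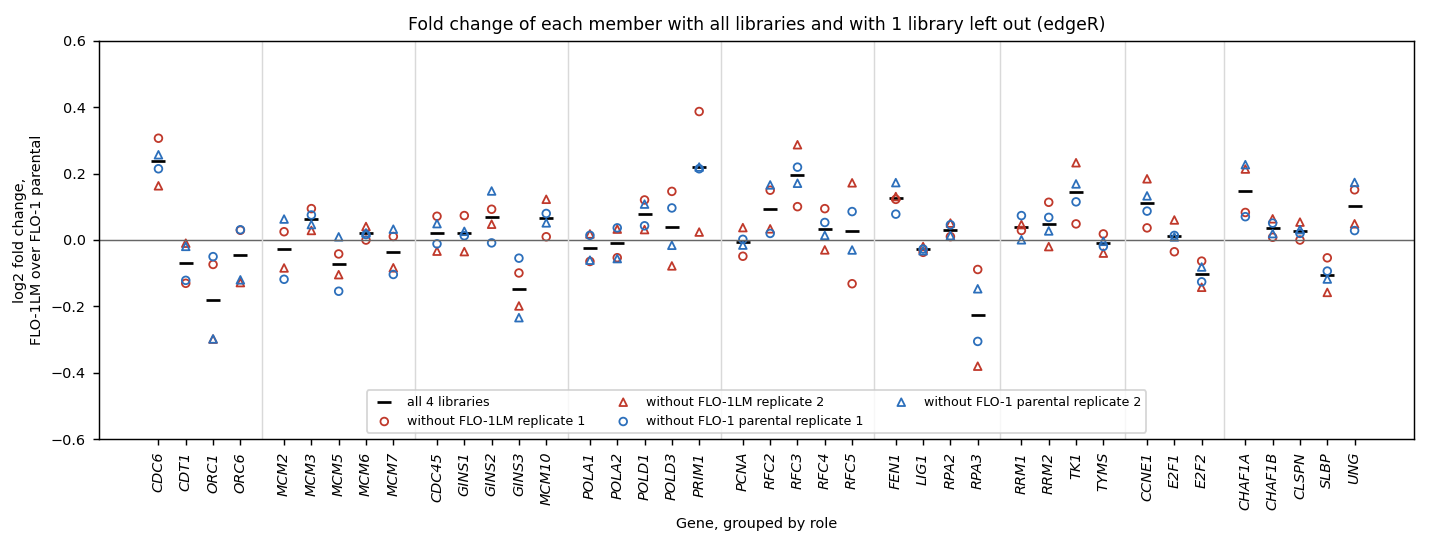
Log2 fold change of FLO-1LM over FLO-1 parental cells (vertical axis) of each of the 40 genes (horizontal axis, grouped by role) with all 4 libraries (bars) and with 1 library left out (open symbols, red for a FLO-1LM and blue for a parental library). *PRIM1* moved the most, from 0.024 to 0.39, while *CDC6* stayed above 0 and *RPA3* below 0 throughout.

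To compare the genes with each other, CPM was divided by the length in kilobases of each gene's canonical transcript and averaged over the 4 libraries. On this per-length scale *MCM7* was highest at 148, followed by *TYMS* at 134, *TK1* at 130, *MCM3* at 103 and *PCNA* at 85.0. *TYMS* and *TK1* overlapped over the 4 libraries and cannot be ordered, whereas *MCM3* and *PCNA* were each separated from the gene next below. *MCM7* was separated from *TYMS* but not from *TK1*. In FLO-1LM replicate 1, *TK1* was at 145.2 and *MCM7* at 141.6. The lowest were *GINS2* at 6.17, *GINS1* at 7.74, *E2F2* at 8.19 and *ORC1* at 8.40. Among the 5 MCM genes listed, whose products join the ring in equal numbers, the level per kilobase of mRNA was 148 for *MCM7*, 103 for *MCM3*, 48.3 for *MCM5*, 44.9 for *MCM2* and 38.0 for *MCM6*. Of 39 neighboring pairs in the order, 10 did not overlap over the 4 libraries. Reads were counted on all isoforms, so these levels are approximate.

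Other cell cycle genes were read from lists made in the same way. Of 40 further replication fork genes, 0 passed the threshold and the median log2 fold change was 0.025, with *ORC3*, an origin subunit, at 0.23 (adjusted p = 0.365 from edgeR). Of 29 tested genes of G1/S control, 0 passed and the median was −0.014. The smallest p-values there were those of the kinase inhibitors *CDKN2C* at −0.20 (adjusted p = 0.302 from edgeR) and *CDKN2B* at 0.31 (adjusted p = 0.306 from edgeR). Of 37 replication-dependent histone genes, 18 had enough reads to test, 0 passed, and *H2BC11* and *H2AC13* had the smallest p-values, at −0.40 (adjusted p = 0.266 from edgeR) and 0.75 (adjusted p = 0.401 from edgeR). Histone genes of this kind mostly lack poly(A) tails and belong to near-identical families, so their counts are uncertain.

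Of 26 genes of G2 and mitosis, 2 passed the threshold, against 2.23% of all tested genes, and both were higher in FLO-1LM. *CDKN3*, a phosphatase that acts on cyclin-dependent kinases, was measured at 56.1 and 62.2 CPM in FLO-1LM and 37.4 and 34.0 CPM in parental cells, and the lines stood well apart. *CENPE*, a kinetochore motor, was measured at 136 and 127 CPM in FLO-1LM and 108 and 96.5 CPM in parental cells, with a log2 fold change of 0.36 (adjusted p = 0.0249 from edgeR). Whether *CENPE* passed depended on which library was left out. Its log2 fold change then ran from 0.29 without parental replicate 2 to 0.44 without parental replicate 1. For *CDKN3* the log2 fold change with all 4 libraries was 0.73 (adjusted p = 0.00034 from edgeR). Its 95% interval of 0.51 to 0.94 lay above that of each of the 40 replication genes. With a library left out, the log2 fold change of *CDKN3* ran from 0.65 to 0.80. At an unadjusted p below 0.05, 8 of the 26 passed (30.8%), 7 of them higher and 1 lower in FLO-1LM, against 12.4% of all tested genes and 1 of the 40 replication genes (2.5%). The medians of the lists were close, at 0.038 and 0.027, and whether the lists differ was not tested.

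**Figure D4:**
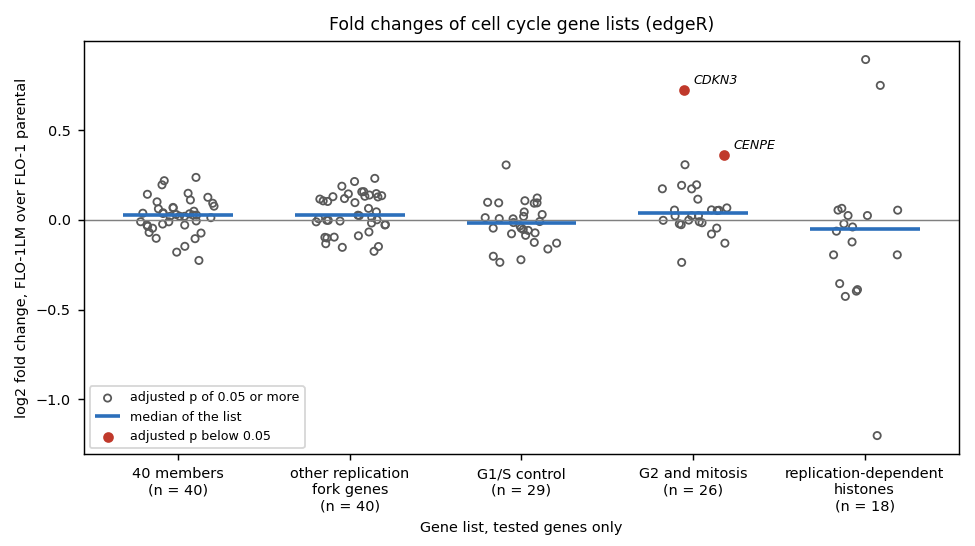
Log2 fold change of FLO-1LM over FLO-1 parental cells (vertical axis) of the tested genes in each cell cycle list (horizontal axis), with a blue line for the median, open circles for genes that did not pass an adjusted p of 0.05 and filled red circles for those that did. Of the genes shown, only *CDKN3* and *CENPE* passed, and the 40 replication genes lie between −0.23 and 0.24.

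For any 1 gene, the smallest two-sided p that exact permutation of 4 libraries allows is 0.333, so the p-values depend on information about spread that edgeR borrows from other genes. Exons of 16 of the 40 genes overlap those of another counted gene, which had more reads than the member for *CHAF1A*, *CHAF1B*, *FEN1*, *GINS2*, *PRIM1*, *RFC4* and *RFC5*, and 0 of these partner genes passed the threshold. Counts may also be split with pseudogenes for genes other than *RPA3*. The pseudogene share of the joint counts was 6.14% to 7.79% for *RRM2*, 4.29% to 7.05% for *RPA2* and 3.60% to 4.50% for *PCNA*. For *FEN1* it was at most 0.517%.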

How the data were processed

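Total RNA of FLO-1LM and FLO-1 parental cells (2 libraries each) was made into directional libraries and sequenced on an Illumina NextSeq system. Per the labels and the methods, the authors used bcl2fastq 2.17, trimmed adapters with Trimmomatic 0.30, mapped reads to GRCh37 with an unnamed aligner, and deposited raw counts of reads for each gene of the Ensembl annotation without normalization. How reads were assigned to genes, and whether by strand, is not given in the sources used here. Their own test results were not used.

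From these counts, genes were kept with filterByExpr at its defaults (minimum count 10, minimum total 15), scaled by TMM and tested by edgeR 4.0.16 (estimateDisp, glmQLFit, glmQLFTest) in R 4.3.3, with Benjamini-Hochberg adjustment over all 17143 tested genes. Replicates were numbered in the order of deposit, so numbers pair no samples. The fit was tried on simulated counts with 200 changed genes and a single spread shared by all genes. That setting is simpler than the real libraries, so it does not test the intervals reported here. Standard errors were derived from the log2 fold change and its F statistic. Alternatives used DESeq2 1.42.0 and limma 3.58.1, other factors and filters, and each library left out. Gene positions and transcript lengths came from GENCODE v44 mapped to GRCh37, and promoters from RefSeq on GRCh38.p14. *UHRF1* and *PECAM1* were listed but could not be matched to a single counted gene. *MYC* of the G1/S control list and *DSCC1* of the replication fork list were left out and are not reported here. Values in every library are given for the gene with the smallest p in each role and for the 3 largest differences in each direction, and for genes of further lists past the threshold (otherwise the 2 smallest p-values were named, of which 1 is not reported here). *PCNA*, *E2F1* and *RFC5* were added after their values were seen. The members and lists were chosen with earlier results of these data known.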

Additional observations from a re-analysis of the deposited data

How the results depend on the processing

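Under the 8 alternatives that kept all 4 libraries, 0 of the 40 genes passed the threshold. Calls at this threshold depended on which library was left out and are not listed. The spread then came from the pair of the other line alone. Without FLO-1LM replicate 1, the log2 fold change was 0.31 for *CDC6* and 0.39 for *PRIM1*. The median log2 fold change of the 40 stayed between −0.0067 and 0.030 under the 12 alternatives and was below 0 in the 2 without TMM or similar factors. In 19 genes, all within 0.073 of 0 in the main comparison, the sign changed under at least 1 alternative. With library totals in place of TMM factors these were *MCM6* −0.011, *CDC45* −0.011, *GINS1* −0.0098, *RFC5* −0.0049, *RPA2* −0.0005, *E2F1* −0.018, *CLSPN* −0.0042 in edgeR and *MCM6* −0.011, *CDC45* −0.010, *GINS1* −0.0086, *RFC5* −0.018, *RPA2* −0.0012, *E2F1* −0.020, *CLSPN* −0.0047 in limma voom. With each library left out in turn, the log2 fold changes ranged as follows: *MCM2* −0.12 to 0.063, *MCM5* −0.15 to 0.0095, *MCM6* −0.0003 to 0.041, *MCM7* −0.10 to 0.033, *ORC6* −0.13 to 0.031, *CDC45* −0.034 to 0.071, *GINS1* −0.035 to 0.073, *GINS2* −0.0088 to 0.15, *PCNA* −0.049 to 0.037, *RFC4* −0.030 to 0.094, *RFC5* −0.13 to 0.17, *POLA1* −0.065 to 0.018, *POLA2* −0.056 to 0.036, *POLD3* −0.078 to 0.15, *RRM2* −0.020 to 0.11, *TYMS* −0.040 to 0.018, *E2F1* −0.035 to 0.060, *CLSPN* −0.0002 to 0.054. Over all genes, the count past the threshold was 577 with no low-count filter and 97 to 1095 with a library left out. With a library left out, the further lists gave 0 to 1 (replication fork), 0 to 2 (G1/S control), 1 to 4 (G2 and mitosis) and 0 to 1 (histones). No paired analysis was possible because the labels carry no replicate numbers. A lone library of a line is assumed to vary as the other line does. Libraries of a line differed beyond counting noise, so the width of the intervals depends on the spread between 2 libraries per line as well as on depth.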
